A study of Homo sapiens with 40 samples.

Results

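Desmosomes are spot-like junctions that tie the keratin filaments of neighbouring epithelial cells together. Their adhesive core is built from the desmosomal cadherins, desmogleins and desmocollins, which bind across the gap between cells. Inside the cell, the armadillo proteins plakoglobin and plakophilins connect the cadherin tails to desmoplakin, the plakin that anchors keratin. In breast epithelium desmosomes give the layer mechanical strength, and their loss is a known feature of the epithelial-mesenchymal transition (EMT), the programme in which TGFβ and the transcription factor SLUG are known to act. The mRNA of 9 desmosome genes, chosen by their symbols, was examined in 24 RNA-seq libraries: the desmogleins DSG2 and DSG3, the desmocollins DSC2 and DSC3, plakoglobin (JUP), the plakophilins PKP1, PKP2 and PKP3, and desmoplakin (DSP). All 9 were found among the 60708 genes of the count files.

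The libraries formed 8 groups of 3. MI is MCF-10A, an immortalized non-tumorigenic breast epithelial line, and MII is the same line transformed with HRAS. Both were grown as 3D spheres on ultra-low attachment plates and left untreated (Ctrl) or given TGFβ1 at 2.5 ng/ml for 16 h. MDA-MB-231, a triple-negative breast cancer line with mesenchymal features, was grown as a monolayer. Its 4 groups were WT (untreated), SLUG KO (CRISPR/Cas9 against SNAI2, the gene of SLUG), Csi (scrambled siRNA) and siSMAD (siRNAs against SMAD2, SMAD3 and SMAD4). According to the study's methods, knockout clones were expanded from single-cell colonies and checked by ddPCR and immunoblotting. How many clones the 3 SLUG KO libraries represent is not given in the sources used here. The Csi and siSMAD libraries carry another batch label than the other 18. Because nothing in the labels says that replicates came from separate cultures, the p-values measure the spread between these libraries, which may be technical.

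Between 14124688 and 38406952 fragments were counted per library. In 7 groups the correlation between replicate libraries was 0.984 or higher, whereas WT replicate 2 stood apart (Pearson's r = 0.957 and 0.952, against 0.989 between WT replicates 1 and 3). The deviations of the WT libraries from their mean correlated with the GC content of transcripts, with r = 0.753 for replicate 2 and -0.826 and -0.622 for replicates 1 and 3 (across 9799 genes, which are not independent replicates). Member fold-changes and list counts that involve WT are given with and without replicate 2. As a check of labels, HRAS was higher in MII Ctrl than in MI Ctrl (log2 fold-change 2.45 ± 0.04, SE), and siSMAD lowered SMAD2 by a log2 fold-change of -1.92 ± 0.05, SMAD3 by -0.69 ± 0.04 and SMAD4 by -1.72 ± 0.06. SNAI2 mRNA was not reduced in the libraries labelled SLUG KO. It was higher than in WT (log2 fold-change 1.10 ± 0.21, adjusted p = 0.0399), and since the guide cuts at the start of the first exon, the mRNA level does not check the knockout. The epithelial labels of the spheres held, with E-cadherin (CDH1) at 86.8 FPKM in MI Ctrl and 93.2 FPKM in MII Ctrl. CDH1 was at 0.203 FPKM in MDA-MB-231 WT, where vimentin (VIM) reached 151.6 FPKM. Of 5 leukocyte markers only CD14 reached 1 FPKM in any group (61.7 FPKM in MI Ctrl, 116.9 in MII Ctrl and 2.59 in WT), while PTPRC did not exceed a group mean of 0.0431 FPKM.

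Levels are given as FPKM, fragments relative to exon length and to the size of the library. Library sizes were scaled by the TMM method over all 24 libraries, to set genes and libraries side by side. This scaling does not correct for GC content, and comparisons between genes depend on the exon length used. Fold-changes come from edgeR fits of the 6 libraries of each comparison with their own scaling, and can differ slightly from the ratio of 2 FPKM levels. A gene is said to have risen or fallen where its adjusted p was under 0.05 over all genes tested. In bulk RNA, fewer cells with a transcript and less of it per cell cannot be told apart.

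All 4 desmosomal cadherin genes examined lie in 1 cluster on chromosome 18 (GRCh38 chr18:30989365-31549008, 559644 bp). DSC3 and DSC2 are on the minus strand, followed by DSC1, and then by DSG1, DSG4, DSG3 and DSG2 on the plus strand. The 3 genes in the middle were nearly silent. DSC1 did not exceed 0.18 FPKM in any library, DSG1 0.167 FPKM and DSG4 0.735 FPKM, while their flanking neighbours DSC2 and DSG3 reached 57.2 and 91.8 FPKM. The plaque genes are dispersed, with DSP at chr6:7541617-7586714, JUP at chr17:41754604-41786931, PKP1 at chr1:201283452-201332993, PKP2 at chr12:32790755-32896777 and PKP3 at chr11:392614-404908. Only DSG2 shares exonic sequence with another gene, 186 bp with the antisense DSG2-AS1. Strand was ignored in counting, so those reads cannot be assigned, but DSG2-AS1 had at most 30 counts in any library. The cadherin transcripts are poor in G and C (38.9% for DSC2 to 42.5% for DSG3), and those of JUP and PKP3 are rich in them (61.5% and 66.7%), against a median of 48.7% for protein-coding genes.

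RefSeq start-site windows of GRCh38.p14, from 250 bases before the start to 50 after it, were matched for 7 of the 9 genes by symbol (9 windows, since DSC2 and JUP have 2 each). PKP2 and PKP3 had no entry. SLUG, SNAIL and ZEB proteins are known to bind the E-box CAGGTG, which was searched for on both strands (its reverse complement is CACCTG) and is printed in capitals below. Windows of DSC2 and DSP are shown because these 2 genes were lower in the libraries labelled SLUG KO, that of DSG2 because it holds the same letters without such a difference, and that of DSG3 because it holds none. They are chr18:31102372-31102671 (minus strand), chr6:7541421-7541720 (plus), chr18:31497927-31498226 (plus) and chr18:31447491-31447790 (plus).
DSC2: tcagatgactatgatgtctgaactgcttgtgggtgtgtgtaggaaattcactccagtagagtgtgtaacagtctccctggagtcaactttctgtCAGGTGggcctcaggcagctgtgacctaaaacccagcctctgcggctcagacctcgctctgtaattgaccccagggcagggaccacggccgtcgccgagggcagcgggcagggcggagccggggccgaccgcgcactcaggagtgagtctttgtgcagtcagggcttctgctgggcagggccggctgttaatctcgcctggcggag
DSP: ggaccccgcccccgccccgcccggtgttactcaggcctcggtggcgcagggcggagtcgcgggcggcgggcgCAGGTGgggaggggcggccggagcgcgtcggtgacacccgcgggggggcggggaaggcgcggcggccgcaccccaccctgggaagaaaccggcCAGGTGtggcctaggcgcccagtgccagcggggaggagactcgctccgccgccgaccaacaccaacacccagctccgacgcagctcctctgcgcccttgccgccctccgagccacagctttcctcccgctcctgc
DSG2: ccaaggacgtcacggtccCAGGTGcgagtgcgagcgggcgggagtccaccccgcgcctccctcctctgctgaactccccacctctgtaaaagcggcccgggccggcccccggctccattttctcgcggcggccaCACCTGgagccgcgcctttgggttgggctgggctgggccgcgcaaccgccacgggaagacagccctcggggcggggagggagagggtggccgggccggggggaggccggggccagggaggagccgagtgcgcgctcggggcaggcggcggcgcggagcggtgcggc
DSG3: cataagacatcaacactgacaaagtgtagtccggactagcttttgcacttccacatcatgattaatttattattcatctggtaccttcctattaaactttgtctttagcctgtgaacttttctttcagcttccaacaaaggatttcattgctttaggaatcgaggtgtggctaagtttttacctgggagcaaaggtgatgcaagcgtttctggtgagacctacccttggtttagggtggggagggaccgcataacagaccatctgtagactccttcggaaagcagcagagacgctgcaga
DSC2 has 1 such hexamer, starting at position -156 from the start site, in this window and 0 in its other, downstream window. DSP has 2, at -178 and -85, and DSG2 has 2, at -232 and -116. The downstream JUP window also holds 2 (at -54 and -43), whereas the DSC3, DSG3 and PKP1 windows hold 0. Of all 35116 windows of the same length, 20.6% hold the hexamer. Neither the AP-1 element TGANTCA (7.71% of all windows) nor the palindrome GTCTAGAC known from SMAD binding (0.202%) occurs in any of the 9 windows. AGACAG, a hexamer that contains the short SMAD-binding AGAC, occurs in 18.7% of all windows and here once in the DSG2 window and once in the PKP1 window. These matches describe letters in a window, not sites bound in these cells.

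Across the 8 groups, the summed FPKM of the 9 genes was highest in MI-spheres with TGFβ (499.4 ± 15.6, SD, n = 3) and lowest in the libraries labelled SLUG KO (40.9 ± 0.573). MI Ctrl and MII TGFβ lay close together, at 279.2 ± 6.38 and 270.7 ± 1.74 FPKM, and MII Ctrl was at 165.0 ± 6.32. In MDA-MB-231 the sum was 55.2 ± 14.4 in WT (45.1 to 71.7, the highest in replicate 2), 103.1 ± 2.66 in Csi and 137.0 ± 4.11 in siSMAD. The composition differed as well. JUP and DSP, the plaque proteins that every desmosome is known to need, led in MI Ctrl (63.9 and 58.7 FPKM), followed by PKP3 (47.5) and DSC3 (35.0). In MII Ctrl the order was JUP (41.6), PKP3 (28.1), DSC2 (25.5) and DSP (25.4). WT MDA-MB-231 cells had DSP (21.0), DSG2 (10.9) and JUP (9.46) in front, although in WT replicates 1 and 3 PKP2 (6.93 and 7.37) lay above JUP (5.27 and 5.45). PKP1, the plakophilin of the upper epidermal layers, had at most 25 counts in any library and a group mean of at most 0.11 FPKM, and it did not pass the filter on low counts in any comparison. Fits with other filters or other libraries tested it and called it higher with TGFβ in MI-spheres (DESeq2 adjusted p = 0.00601) and, by DESeq2 (adjusted p = 0.02) and without the filter, lower in MII TGFβ than in MI TGFβ. Without the filter it was also called higher in siSMAD (edgeR adjusted p = 0.0367).

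TGFβ stimulation of MI-spheres was compared with Ctrl to ask how the genes of an epithelial junction respond to this cytokine in normal-like cells. All 8 members that passed the filter rose, where 28.7% of the 16863 genes tested rose and 56.0% changed in either direction. Their median log2 fold-change was 0.74, against -0.02 for all genes tested. DSC2, the widely expressed desmocollin, was at 12.6, 12.7 and 13.1 FPKM in the Ctrl libraries and at 57.2, 53.1 and 56.0 with TGFβ. It rose 4.09-fold (log2 fold-change 2.03 ± 0.05, adjusted p = 5.63e-18). DSG3, the desmoglein of basal keratinocytes, went from 29.1, 28.7 and 28.2 FPKM to 85.5, 78.6 and 91.8, a 2.81-fold rise (1.49 ± 0.05, adjusted p = 2.5e-15). For both genes every TGFβ library lay above every Ctrl library by far more than the spread within a group.

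DSP, the keratin anchor, was at 59.7, 58.6 and 57.9 FPKM without and 117, 115 and 110.96 FPKM with TGFβ (log2 fold-change 0.88 ± 0.05, adjusted p = 7.3e-12). DSC3, the desmocollin of basal layers, was at 35.8, 34.7 and 34.5 FPKM without and 62.7, 58.4 and 69.3 FPKM with it (0.78 ± 0.05, adjusted p = 1.53e-10). PKP2, a plakophilin of simple and complex epithelia, rose from a mean of 4.65 to 8.06 FPKM (0.71 ± 0.07, adjusted p = 1.39e-08). The groups did not overlap for any of these 3 genes, and how many of all genes separated in this way was not counted. The other members rose by less: DSG2 by 0.28 ± 0.05, PKP3 by 0.23 ± 0.05 and JUP by 0.20 ± 0.06 on the log2 scale. The JUP call was lost without MI Ctrl replicate 3 (adjusted p = 0.0573) or without MI TGFβ replicate 1 (adjusted p = 0.0552). With the added requirement of a log2 fold-change above 1, only DSC2 and DSG3 remained of the 8 members, where 3.64% of all genes tested rose that far.

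Among related genes in MI-spheres, PERP, a tetraspan protein of desmosomes, rose (0.75 ± 0.06), and so did the very low DSG1, so that 2 of 3 tested genes of the list of other desmosome genes rose. Of the 5 plakin cytolinkers, which bridge junctions and filaments, DST rose (0.53 ± 0.05) and 4 fell, periplakin (PPL) with the smallest adjusted p (-1.05 ± 0.06). Keratins, the filaments that desmosomes anchor, rose in 8 of 10 cases, among them the basal keratin KRT5 (2.39 ± 0.05), which had the smallest adjusted p of the list, and KRT6A with a larger change (2.61 ± 0.06), while KRT7 fell (-0.51 ± 0.05). The 10 adherens junction genes were split, 4 rising and 4 falling, with the nectin NECTIN1 at 0.98 ± 0.07 and afadin (AFDN) at -0.47 ± 0.05. Of 18 transcription and splicing regulators of epithelial junctions 3 rose and 9 fell, with TP63, the basal epithelial master regulator, at 0.69 ± 0.06 and KLF4 at -1.998 ± 0.08. Genes of desmosome assembly, trafficking and shedding were split (3 of 9 rose and 2 fell, with FLOT2 at 0.91 ± 0.07 and TMEM59 at -0.31 ± 0.05). Of the marker lists, 5 of 6 basal mammary genes rose, with summed levels of 561.2 to 582.8 FPKM without and 1090 to 1164 FPKM with TGFβ. Luminal markers rose in 3 of 6 tested and fell in 1 (296.5 to 305.3 and 361.6 to 394.7 FPKM, summed). Mesenchymal genes rose in 4 of 7 cases (summed level 6.75 to 7.63 and 22.4 to 23.0 FPKM), and of 11 stratified squamous genes 2 rose and 2 fell among 9 tested (447.6 to 477.3 and 660.9 to 669.6 FPKM), with KRT1 at 0 counts in Ctrl. Whether cells with these markers contribute to the member levels was not tested.

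MII-spheres were examined in the same way to ask whether HRAS-transformed cells respond alike. Again all 8 tested members rose, where 29.9% of 16396 genes rose and 57.6% changed in either direction, with a median log2 fold-change of 0.57 for the members and -0.02 for all genes. The leading gene was now DSG3, at 10.7, 10.3 and 10.4 FPKM without and 35.7, 35.2 and 32.8 FPKM with TGFβ, a 3.23-fold rise (1.69 ± 0.05, adjusted p = 1.79e-35). DSC2 was at 25.3, 25.0 and 26.2 FPKM without and 54.9, 56.0 and 54.2 FPKM with TGFβ (2.11-fold, 1.08 ± 0.03, adjusted p = 3.73e-32). DSP went from 25.8, 25.7 and 24.5 FPKM to 47.4, 49.1 and 46.6 FPKM (0.88 ± 0.03), and DSC3 from 6.56, 6.10 and 6.28 FPKM to 10.7, 11.2 and 10.6 FPKM (0.75 ± 0.05). No TGFβ library overlapped a Ctrl library for these 4 genes, again without a count of such separation over all genes. Smaller rises were found for DSG2 (0.38 ± 0.04), PKP2 (0.29 ± 0.07), PKP3 (0.27 ± 0.05) and JUP (0.25 ± 0.04). Only DSG3 and DSC2 rose by a log2 fold-change above 1, where 3.12% of all genes tested did.

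The related genes of MII-spheres included PERP (0.41 ± 0.03) and DSG4, the 2 of 3 tested genes of the other desmosome list that rose. Of the 5 plakins 3 fell, PPL by -0.55 ± 0.04. Keratins rose in 8 of 10 cases, with KRT5 at 3.38 ± 0.05. Of the 10 adherens junction genes 7 rose and 3 fell, with P-cadherin (CDH3) at 0.94 ± 0.04 and p120-catenin (CTNND1) at -0.53 ± 0.06. Among the 18 regulators 3 rose and 8 fell, with SNAI1, the gene of SNAIL, at -2.53 ± 0.13. SNAI1 fell in MI-spheres too (-2.22 ± 0.11). By RT-qPCR, the study reported SNAI1 among the genes that TGFβ upregulates in these spheres. The cause of this difference was not tested. Of the assembly and shedding genes 5 of 9 rose and 2 fell, with the flotillins FLOT2 at 0.37 ± 0.06 and FLOT1 at -0.45 ± 0.05. Basal mammary markers rose in 5 of 6 cases (201.8 to 209.0 FPKM without and 586.9 to 627.0 FPKM with TGFβ, summed). Luminal markers rose in 4 of 8 and fell in 1 (564.6 to 568.3 and 678.6 to 716.1 FPKM). Mesenchymal markers rose in 2 of 7 cases and fell in 1 (13.4 to 13.8 and 15.1 to 15.3 FPKM), and squamous markers rose in 4 of 7 tested (39.1 to 42.5 and 56.7 to 58.2 FPKM). Their part in the member levels was not tested.

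The response to TGFβ differed between the lines for some members. In a fit of the 12 sphere libraries with an interaction term, 3 of 8 members passed the threshold, where 22.4% of 18591 genes did (9.75% with a negative and 12.6% with a positive interaction term). DSC2 responded less in MII (interaction log2 fold-change -0.95 ± 0.06, adjusted p = 1.68e-15), as did PKP2 (-0.41 ± 0.09, adjusted p = 0.000941). DSG3 responded slightly more (0.21 ± 0.07, adjusted p = 0.0261), but only 6 of 20 alternative fits kept that call, with adjusted p up to 0.232. For DSP the responses differed by 0.01 with a 95% interval of -0.11 to 0.13, and for DSC3 by -0.02 with an interval of -0.17 to 0.13. The intervals of DSG2 (-0.02 to 0.24), JUP (-0.10 to 0.22) and PKP3 (-0.12 to 0.23) also included 0.

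**Figure D1:**
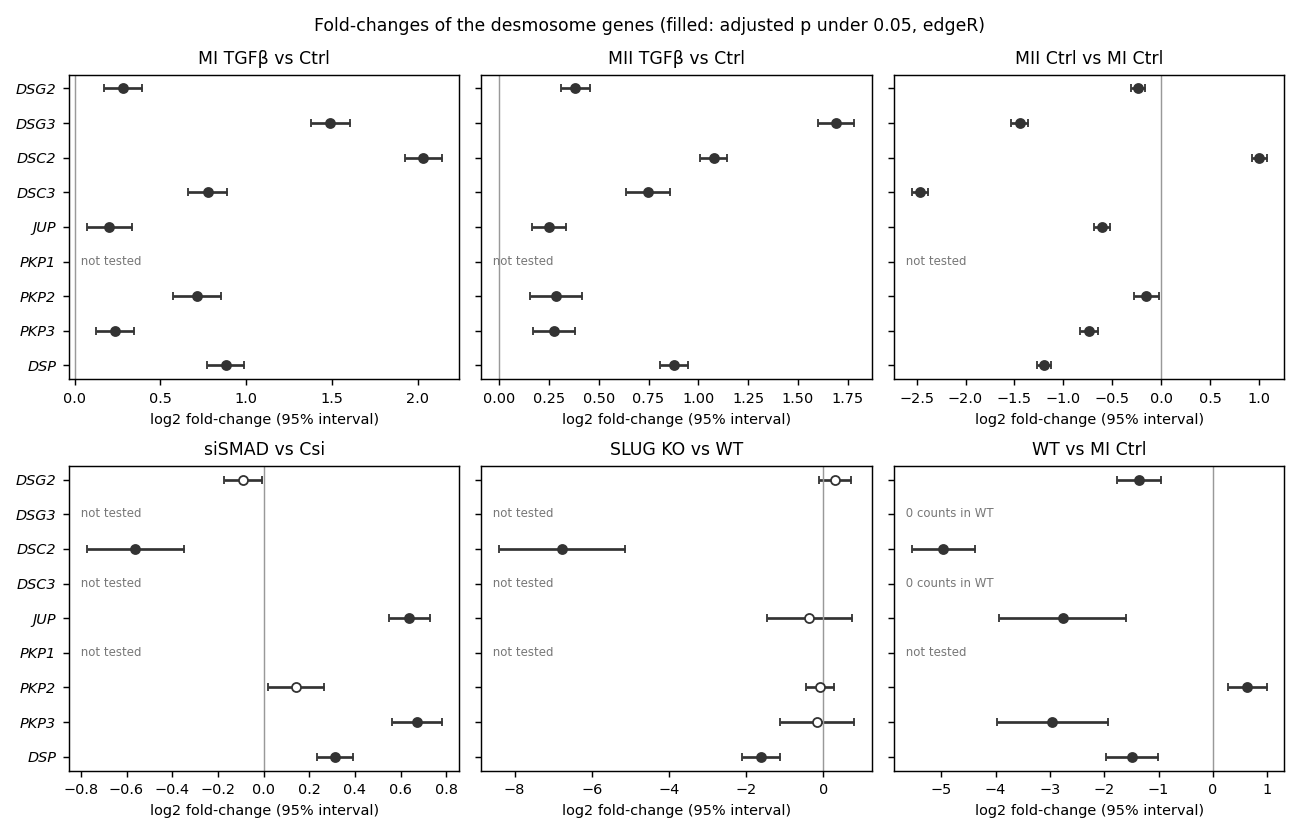
Log2 fold-changes with 95% intervals of the desmosome genes in 6 comparisons (each panel has its own horizontal axis). Filled points have an edgeR adjusted p under 0.05. All 8 tested genes lie to the right of 0 with TGFβ in both sphere types, 7 of 8 lie to the left in MII against MI without TGFβ, and DSC3 and DSG3 are not drawn for WT against MI Ctrl because they had 0 counts in WT.

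Before stimulation, MII-spheres had less mRNA of most members than MI-spheres. Of the 8 tested, 7 were lower, where 32.5% of 17862 genes were lower, 31.7% were higher and 64.2% differed in either direction, and the median log2 difference was -0.67 against 0.02 for all genes. The drop was steepest for DSC3 (5.52-fold, log2 fold-change -2.47 ± 0.04), then DSG3 (2.72-fold, -1.44 ± 0.04) and DSP (2.30-fold, -1.20 ± 0.03). PKP3 (-0.74 ± 0.05), JUP (-0.60 ± 0.04) and DSG2 (-0.24 ± 0.04) followed. PKP2 was lower by only -0.15 ± 0.06 (adjusted p = 0.0337), a call that 5 of 15 alternative fits lost, among them those without MI Ctrl replicate 1 (adjusted p = 0.138) and without MII Ctrl replicate 1 (adjusted p = 0.112). DSC2 was the exception, 2.00-fold higher in MII (1.00 ± 0.04, adjusted p = 9.37e-31).

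With TGFβ in both lines, 7 of 8 members were still lower in MII than in MI, where 31.6% of 15878 genes were lower and 31.1% higher (62.7% in either direction). DSC3 differed by -2.47 ± 0.05, DSG3 by -1.23 ± 0.05 and DSP by -1.19 ± 0.05. DSC2 was not distinguishable between the stimulated lines (0.06 ± 0.05, 95% interval -0.03 to 0.16). DSG2 was lower by -0.12 ± 0.05 (adjusted p = 0.0346), which held in 8 of 15 alternative fits and was lost, for example, without MI TGFβ replicate 1 (adjusted p = 0.21) or without MII TGFβ replicate 1, 2 or 3 (adjusted p = 0.0833, 0.0699 and 0.118). The 2 line comparisons and the TGFβ comparisons share libraries and are not independent of each other.

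Other junction genes did not all follow the members in the comparison of untreated lines. PKP4 was higher in MII (0.38 ± 0.05) and PERP lower (-0.71 ± 0.03), with DSG4 higher at a very low level. Plakins were higher in 3 of 5 cases and lower in 1, with DST at 0.92 ± 0.03 and EVPL at -0.25 ± 0.05. Of the keratins 6 were higher and 4 lower, with KRT6B at 4.10 ± 0.07 and KRT17 at -1.95 ± 0.03. Among adherens junction genes 5 of 10 were higher and 3 lower, with β-catenin (CTNNB1) at 0.41 ± 0.03 and NECTIN1 at -1.23 ± 0.06. Regulators were mostly lower (11 of 18, against 5 higher), with TP63 at -6.42 ± 0.12 and KLF4 at 1.10 ± 0.05. The assembly and shedding list was split, 4 higher and 4 lower, with PRKCA at 1.23 ± 0.06 and the sheddase ADAM10 at -0.96 ± 0.04. All 8 tested squamous markers were lower, with a summed level of 39.1 to 42.5 FPKM against 447.6 to 477.3 in MI. Basal markers were lower in 4 of 6 cases (201.8 to 209.0 against 561.2 to 582.8 FPKM), but KRT14 was higher (2.42 ± 0.17). Luminal markers were higher in 6 of 7 tested (564.6 to 568.3 against 296.5 to 305.3 FPKM), but ESR1 was lower (-1.21 ± 0.15). Of 7 mesenchymal markers 5 were higher and 2 lower (13.4 to 13.8 against 6.75 to 7.63 FPKM). The part of these markers in the member differences was not tested.

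Within each subfamily, the balance between members shifted with TGFβ and with the line. DSG3 made up 50.7% ± 0.373 (SD, n = 3) of desmoglein FPKM in MI Ctrl and 70.3% ± 1.06 with TGFβ. In MII-spheres its share was 30.9% ± 0.597 without and 52.4% ± 0.651 with TGFβ, and no 2 of these 4 groups overlapped. DSC3 held 73.2% ± 0.751 of desmocollin FPKM in MI Ctrl, 53.3% ± 1.73 in MI TGFβ, 19.9% ± 0.672 in MII Ctrl and 16.4% ± 0.204 in MII TGFβ. Thus the desmoglein balance moved towards the basal gene DSG3 with TGFβ, whereas the desmocollin balance moved towards DSC2. PKP3 dominated the plakophilins of all 4 sphere groups (87.0% to 91.1%). In MDA-MB-231 cells DSG3 had 0 counts, so that DSG2 made up the whole desmoglein share, which leaves out DSG1 and DSG4. PKP2 had a plakophilin share of 57.0% ± 13.9 in WT, 55.6% ± 3.30 in SLUG KO, 34.1% ± 1.38 in Csi and 26.5% ± 2.06 in siSMAD there. The wide SD of WT reflects replicate 2, with 41.0% against at most 66.3% in the others. The cadherins together accounted for 37.4% ± 0.316 of the summed member FPKM in MI Ctrl and 48.1% ± 2.17 with TGFβ, and for 39.9% ± 1.79 and 48.7% ± 0.853 in MII. The shares are descriptions and were not tested.

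**Figure D2:**
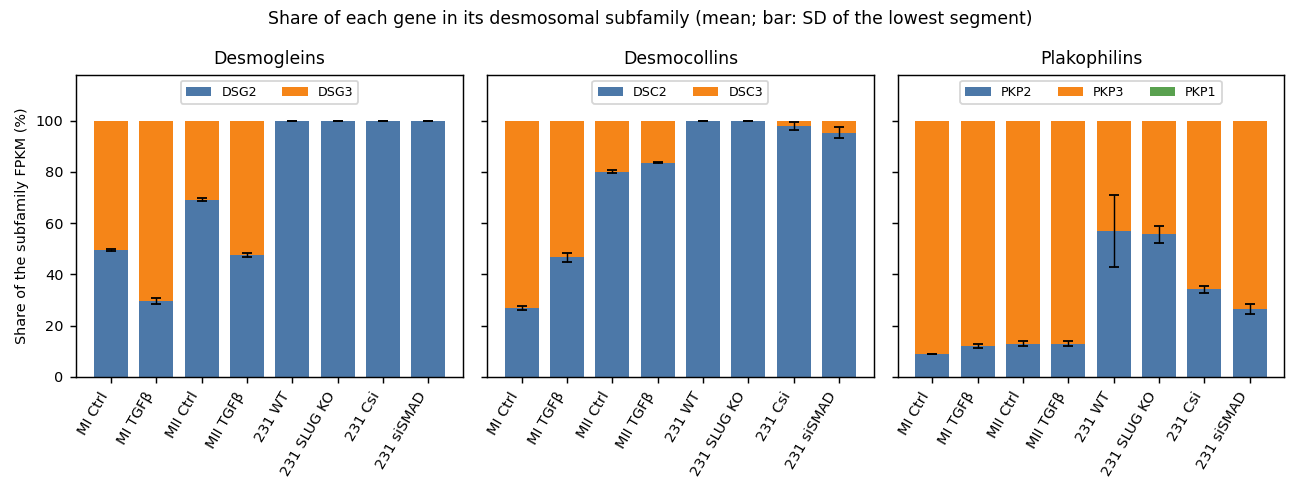
Mean share of each gene in the summed FPKM of its subfamily, in percent, for the 8 groups (3 libraries each, except desmocollins in SLUG KO, where 1 library had counts). Error bars are the SD of the lowest segment, and PKP1 is too small to be seen. DSG3 has a share in the 4 sphere groups and none in the MDA-MB-231 groups, and DSC3 holds only 2.08% in Csi and 4.66% in siSMAD.

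MDA-MB-231 WT cells were set against MI Ctrl as the mesenchymal and the epithelial end of the series. The 2 groups differ in line, culture format and origin, which cannot be told apart. Of 8 tested members 7 were lower in WT with or without replicate 2, where 25.9% of 18732 genes were lower, 28.1% were higher and 54.0% differed in either direction. DSG3 and DSC3 passed the filter through MI Ctrl alone and therefore had to differ. Of the 6 members with at least 10 counts in every library 5 were lower and 1 was higher, where 47.7% of 13692 genes were called in either direction. DSG3 and DSC3 had 0 counts in all 3 WT libraries, at least 4034-fold lower than MI Ctrl for DSG3 and at least 6801-fold lower for DSC3, from a floor of 3 counts over the group. These bounds cover counting error only. DSG3 also had 0 counts in every SLUG KO, Csi and siSMAD library, and DSC3 had between 1 and 8 counts in each Csi and siSMAD library. DSC2 was at 0.445, 0.299 and 0.493 FPKM in WT (-4.96 ± 0.25). PKP3 differed by -2.96 ± 0.44, JUP by -2.76 ± 0.50, DSP by -1.49 ± 0.20 and DSG2 by -1.36 ± 0.17. PKP2 was higher in WT (0.64 ± 0.15, adjusted p = 0.00944). This call was lost in 6 of 14 alternatives, which included leaving out MI Ctrl replicate 1, 2 or 3 (adjusted p = 0.0605, 0.0782 and 0.0798). Without WT replicate 2, the difference grew to -3.65 for PKP3 and -3.61 for JUP, and was -1.69 for DSP, -1.30 for DSG2, -4.80 for DSC2 and 0.59 for PKP2.

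In the same comparison the keratin list was lower in 7 of 10 cases, KRT17 by -10.93 ± 0.38, with the simple-epithelial KRT19 higher (6.74 ± 0.37). Adherens junction genes were lower in 5 of 10 cases, NECTIN4 by -12.31 ± 0.39. Of 18 regulators 15 were lower, including GRHL2, an activator of epithelial junction genes (-10.56 ± 0.30), and 3 were higher, including the EMT factor ZEB1 (6.26 ± 0.29). Plakins went the other way in 3 of 5 cases, with DST at 2.20 ± 0.18 and PPL at -2.49 ± 0.41. PERP was lower (-4.47 ± 0.43) and PKP4 higher (0.93 ± 0.15). In the assembly list 3 of 9 were higher, with PRKCA at 3.31 ± 0.28, and 2 lower, with TMEM59 at -2.40 ± 0.33. Basal markers were lower in 5 of 6 cases, with KRT5 at 0 counts in WT, and mesenchymal markers were higher in 5 of 7. List genes that passed the filter through MI Ctrl alone, such as KRT5, had to differ. The lists were not recounted with at least 10 counts in every library. The sizes of the largest drops, those of NECTIN4 and GRHL2 among them, depend on WT counts near 0. Without WT replicate 2, where 74.9% of all genes were called, keratins were lower in 9 of 10 cases, adherens junction genes lower in 6 and higher in 2, plakins higher in 3 and lower in 2 of 5, and the assembly list split 4 to 4, with PPL at -3.14, KRT17 at -11.33, GRHL2 at -10.31 and ZEB1 at 6.43. The regulator, basal and mesenchymal counts were then 15 of 18 lower, 6 of 6 lower and 5 of 7 higher.

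SLUG KO was compared with WT to ask which members differ where this repressor of epithelial genes was targeted. Differences between single-cell colonies and the parental cells cannot be told apart from the loss of SLUG. Of the 6 members tested, 2 were lower and the other 4 did not pass the threshold, where 1.89% of 17428 genes were lower and 3.33% changed in either direction. DSC2 passed the filter through WT alone and therefore had to differ. With at least 10 counts in every library 1 of 5 members, DSP, was called, where 1.75% of 14872 genes were called in either direction. DSC2, already low, had 148, 90 and 153 counts in WT and 3, 0 and 0 counts in the libraries labelled SLUG KO. From summed counts, WT was 119.2-fold higher, with a counting interval of 40.5 to 580.6 (exact, 95%), and the edgeR adjusted p was 0.00449. DSP was at 20.1, 26.0 and 17.0 FPKM in WT and at 6.61, 6.99 and 7.56 FPKM in SLUG KO, 3.04-fold lower (log2 fold-change -1.61 ± 0.21, 95% interval -2.10 to -1.11, adjusted p = 0.0102). The groups did not overlap for either gene, a separation that was not counted over all genes. The DSP call was lost without SLUG KO replicate 1, 2 or 3 (adjusted p = 0.0948, 0.0827 and 0.0807), with fold-changes of -1.54 to -1.63.

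JUP and PKP3 depended on WT replicate 2. JUP was at 5.27, 17.7 and 5.45 FPKM in WT and at 8.10, 6.60 and 7.86 FPKM in SLUG KO (-0.36 ± 0.47, adjusted p = 0.704). PKP3 was at 3.52, 10.7 and 4.21 FPKM in WT and at 6.10, 5.39 and 5.31 FPKM in SLUG KO (-0.16 ± 0.41, adjusted p = 0.852). Without WT replicate 2 both were higher in SLUG KO, JUP by 0.48 (adjusted p = 0.00266) and PKP3 by 0.52 (adjusted p = 0.00252), and the number of members that changed went from 2 to 4, while the share of all genes called went from 3.33% to 31.2%. Without that library DSP was again lower in SLUG KO (-1.41, adjusted p = 3.55e-08). DSC2 was lower too (-6.93, adjusted p = 2.08e-08), but with counts near 0 in SLUG KO its direction could not change. JUP and PKP3 have the highest transcript GC content of the 9 genes, and its part in these values was not tested beyond the following fit. With a GC-content correction and all 6 libraries, PKP3 differed by 0.12 (edgeR adjusted p = 0.489), whereas JUP kept its negative sign. Neither passed the threshold in that fit. The values of DSG2 (0.31 ± 0.18, 95% interval -0.11 to 0.72) and PKP2 (-0.07 ± 0.15, -0.43 to 0.29) did not pass the threshold with or without the library.

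**Figure D3:**
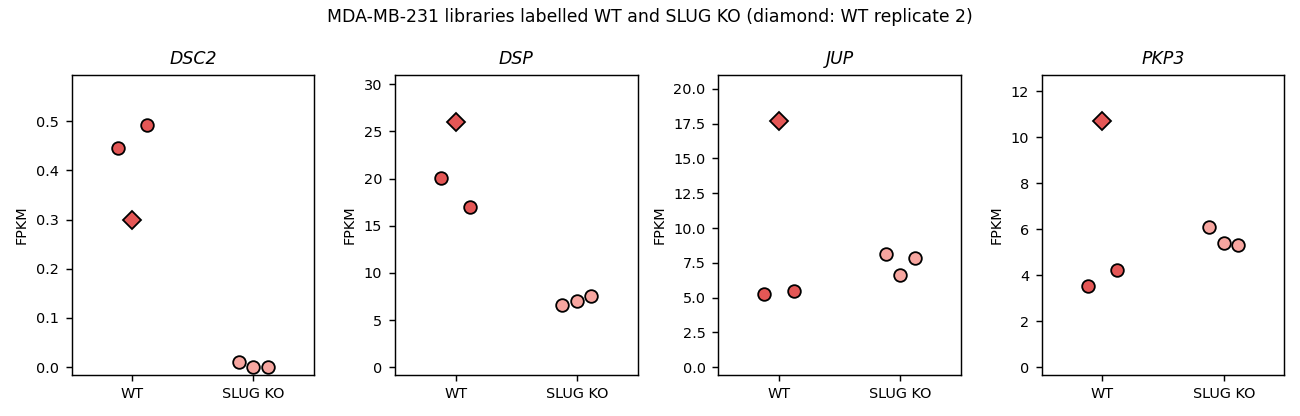
FPKM (linear axes, 1 point per library) of DSC2, DSP, JUP and PKP3 in the MDA-MB-231 libraries labelled WT and SLUG KO, with WT replicate 2 as a diamond. DSC2 and DSP are lower in all 3 SLUG KO libraries than in all 3 WT libraries, whereas for JUP and PKP3 the SLUG KO libraries lie above WT replicates 1 and 3 and below WT replicate 2.

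In this comparison few genes passed the threshold, related genes included. None of the tested genes of the other desmosome (3), plakin (5), keratin (5), adherens junction (9) and assembly (9) lists did by edgeR or by DESeq2. Of all genes, 3.33% were called by edgeR and 5.23% by DESeq2, and 31 genes are too few to set 0 calls apart from such shares. An unadjusted edgeR p under 0.05 was found for 2 of these 31 genes, a count for which no share of all genes was computed. Without WT replicate 2, 8 of the 31 were higher and 1 was lower, where 31.2% of all genes were called. Of 11 tested regulators, SNAI2 and KLF4 (0.88 ± 0.18, adjusted p = 0.0474) were higher and TFAP2C was lower (-1.03 ± 0.20, adjusted p = 0.0421). The KLF4 call was not followed through the alternative fits. The SNAI2 and TFAP2C calls were both lost when WT replicate 1 or 3 or any SLUG KO library was left out (adjusted p = 0.0628 to 0.221 for SNAI2 and 0.0821 to 0.267 for TFAP2C). Both held without WT replicate 2 (SNAI2 0.94, adjusted p = 2.54e-06, and TFAP2C -0.96, adjusted p = 0.000807), where 3 of 12 tested regulators were higher and 1 was lower. Of 6 tested mesenchymal markers 1 was higher, SNAI2, which is the gene targeted by the guide. Only fibronectin (FN1) was lower (-3.17 ± 0.23, adjusted p = 0.00182). Summed mesenchymal levels were 181.2 to 241.7 FPKM in WT and 170.3 to 185.3 in SLUG KO. Fibroblast markers were higher in 2 of 5 tested (5.61 to 11.02 FPKM in WT and 7.47 to 8.71 in SLUG KO, summed). Without WT replicate 2, 3 of 4 tested basal markers were higher, mesenchymal markers were 1 higher and 2 lower, and fibroblast markers 2 higher and 1 lower. Their part in the member differences was not tested.

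Silencing of SMAD2/3/4 in MDA-MB-231 was examined to ask which genes depend on the intracellular mediators of TGFβ without added ligand. Of 6 tested members 3 rose and 1 fell, where 16.3% of 17696 genes rose, 19.7% fell and 36.0% changed in either direction. PKP3 was at 10.7, 10.2 and 10.3 FPKM in Csi and at 17.4, 16.9 and 15.6 FPKM in siSMAD (1.59-fold, 0.67 ± 0.05, adjusted p = 1.13e-11). JUP went from 37.9, 38.02 and 35.3 FPKM to 58.3, 60.7 and 54.8 FPKM (1.56-fold, 0.64 ± 0.04, adjusted p = 2.39e-13). DSP rose less, from 31.2, 30.3 and 29.4 FPKM to 38.9, 38.04 and 36.6 FPKM (1.24-fold, 0.31 ± 0.04, adjusted p = 8.42e-08). The siSMAD libraries lay above all Csi libraries for these plaque genes, and such separation was not counted over all genes.

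DSC2 fell from 0.697, 0.704 and 0.692 FPKM to 0.484, 0.481 and 0.458 FPKM (-0.56 ± 0.10, adjusted p = 6.2e-05). DSG2 differed by -0.09 ± 0.04 (95% interval -0.18 to -0.01, adjusted p = 0.0934) and PKP2 by 0.14 ± 0.06 (0.02 to 0.27, adjusted p = 0.0668). Both p-values sit near the threshold. DSG2 passed it without siSMAD replicate 3 (adjusted p = 0.0414), and PKP2 without Csi replicate 3 (0.0437) or siSMAD replicate 1 (0.0261), with at least 10 counts in every library (0.0436) and with a GC-content offset (0.0333). According to the file names, 2 of the siSMAD libraries come from another flow cell than their label states. With flow cell as a term, the siSMAD effect rests on replicate 3 alone, the only siSMAD library on the flow cell of Csi. That fit therefore cannot check the calls. None of the 4 members that rose or fell with siSMAD moved by a log2 fold-change above 1. Of all genes, 0.978% exceeded it upwards and 0.927% downwards.

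Among the related genes with siSMAD, PERP rose (0.22 ± 0.05) and PKP4 fell (-0.14 ± 0.04). The PKP4 call was lost without Csi replicate 2 or siSMAD replicate 1 or 2 (adjusted p = 0.0668, 0.0682 and 0.0685). With flow cell as a term, which rests on siSMAD replicate 3, the PKP4 value was -0.10. Plakins rose in 2 of 5 cases, PPL by 0.45 ± 0.05, and keratins in 4 of 7 tested, KRT18 by 0.27 ± 0.04. Adherens junction genes were split, 2 rising and 2 falling of 9 tested, with CTNND1 at 0.34 ± 0.07 and NECTIN1 at -0.51 ± 0.06. Of 14 tested regulators 4 rose and 3 fell, with KLF4 at 0.45 ± 0.05 and the EMT factor ZEB2 at -0.57 ± 0.09. The assembly list had 4 rising genes of 9, with the calpain CAPN1 at 0.38 ± 0.04, and 2 falling, with the sheddase ADAM17 at -0.29 ± 0.05. Mesenchymal markers showed 1 rise and 2 falls of 6 tested, with summed levels of 351.5 to 357.5 FPKM in Csi and 366.7 to 385.2 FPKM in siSMAD. Luminal markers rose in 3 of 5 tested and fell in 1 (482.2 to 494.4 and 560.6 to 584.6 FPKM, summed), and basal markers rose in 2 of 5 and fell in 1 (71.9 to 76.7 and 92.0 to 99.9 FPKM). Fibroblast markers rose in 2 of 5 (11.4 to 11.9 and 13.9 to 14.5 FPKM). Their part in the member changes was not tested.

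Placing the groups in order, DSP ranged from MI TGFβ (114.3 FPKM) over MI Ctrl (58.7), MII TGFβ (47.7), siSMAD (37.8), Csi (30.3), MII Ctrl (25.4) and WT (21.0) to SLUG KO (7.05), and only the ranges of MII Ctrl and WT overlapped between neighbours, through WT replicate 2 (26.0). JUP showed a similar order at the top, with MI TGFβ at 77.7 FPKM and MI Ctrl at 63.9, whose range overlapped that of siSMAD (58.0). WT (9.46) and SLUG KO (7.52) came last and overlapped, with WT replicate 2 above and the other WT libraries below SLUG KO. DSG2 had the flattest profile of the cadherins, from 36.0 FPKM in MI TGFβ to 10.9 in WT, with only Csi (19.2) and siSMAD (18.1) overlapping. PKP2 varied least, from 4.14 FPKM in MII Ctrl to 8.06 in MI TGFβ, with WT (7.25) overlapping MI TGFβ through replicate 2 (7.45). Levels of Csi and siSMAD are set beside the other groups across batch labels, so differences between them and the rest cannot be told apart from batch.

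The genes with profiles most like DSP, DSC2 and DSG3 were found by Pearson's r of log2 CPM over the 18 libraries of 1 batch label, among 11369 protein-coding genes. Among the nearest to DSP were TGFBI (r = 0.983), a TGFβ-induced matrix protein, MFSD2A (0.982) and KDM4A (0.979). Near DSC2 were LANCL3 (0.989) and CD24 (0.987), and near DSG3 were ABTB3 (0.998), GJB5 (0.997), a gap junction gene, and VAV3 (0.997). These libraries fall into MDA-MB-231 and sphere libraries, with both kinds of culture pooled in these values. Over the 12 sphere libraries only, r was 0.967, 0.979 and 0.985 for the DSP neighbours, 0.977, 0.974 and 0.930 for those of DSG3 and lower for those of DSC2 (0.770 and 0.611).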

How the data were processed

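Per the study's methods, ribosomal RNA-depleted libraries were trimmed with Trimmomatic and aligned to GRCh38 with STAR. The authors deposited raw fragment counts per GENCODE 38 gene from featureCounts (Subread 2.0.0), counting properly mapped pairs with a minimum mapping quality of 30, ignoring strand. Counts carry no normalization. The 16 ATAC-seq samples were not analysed here. Symbols were matched by gene ID to a reference table of gene names (60507 of 60708 genes, 99.67%).

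Each comparison was fitted on its 6 libraries, and the interaction on 12, with edgeR 4.0.16 (filterByExpr, TMM, quasi-likelihood test, Benjamini-Hochberg adjustment over all genes tested). SE is the log2 fold-change divided by the root of the F statistic, and 95% intervals use the t distribution of the fit. Functions were tested on simulated data. Members and gene lists were chosen with earlier results of these data known. From each list the most significant gene per direction was named, with the members, the targeted genes and the 3 protein-coding genes most like DSP, DSC2 and DSG3. Some genes named by these rules are not reported here. Count-ratio intervals and floors (3 counts) cover counting error only. Same-numbered libraries did not deviate together (r -0.185 to 0.0655), so replicates were not paired. Alternatives were DESeq2 1.42.0, its size factors, other filters (none, or 10 counts in every library), gene-length and GC-content offsets, a replicate block, flow cell, and leaving out each library. The GC-content offset and the list counts without WT replicate 2 were chosen after seeing the data.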

Additional observations from a re-analysis of the deposited data

Results flagged for a closer look

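In 3 members the response to TGFβ differed between MI- and MII-spheres by the interaction test (log2 scale, edgeR). DSC2 responded by -0.95 less in MII, from a higher untreated level (25.5 against 12.8 FPKM), with overlapping levels after TGFβ. PKP2 differed by -0.41. DSG3 differed by 0.21, and 14 of 20 alternative fits did not keep that call.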

How the results depend on the processing

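The number of members called stayed within 1.5 times its value in 117 alternative fits, and the 6 exceptions concern SLUG KO against WT. There the count of 2 became 1 with at least 10 counts in every library, a filter that removes DSC2, and 1 with a replicate block plus gene-length offset, and leaving out 1 library gave 1 to 4. The replicate block alone left 8 members called for TGFβ in MI and in MII, 2 for SLUG KO and 4 for siSMAD, and 7 in place of 8 for WT against MI Ctrl (PKP2 lost, adjusted p = 0.0557). Over all genes, the calls for SLUG KO went from 581 to 255 with the block, 186 with block and gene-length offset, 1204 with DESeq2, 973 without the filter, 260 with at least 10 counts, 2145 after GC-content correction, 5592 without WT replicate 2 and 133 to 378 without another library, and those for WT against MI Ctrl from 10107 to 6527 with at least 10 counts. Of 923 alternative values of single members, 855 kept direction and side of the threshold and 25 changed sign, all but 2 (JUP and PKP3 without WT replicate 2) with adjusted p above 0.05 on both sides. For the difference in response between lines, DSP was -0.0035 with DESeq2 size factors and -0.0558 to 0.0229 leaving out 1 library, DSC3 -0.11 to 0.0101, JUP -0.0539 to 0.13 and PKP3 -0.0251 to 0.158, with PKP3 at -0.0219 after GC-content correction. DSC2 in MII TGFβ against MI TGFβ was -0.0175 with a gene-length offset and -0.017 with block and offset. For SLUG KO, PKP2 was 0.0024 without the low-count filter, and PKP3 was 0.0251 with the replicate block and 0.117 after GC-content correction. Leaving out 1 library gave -0.619 to 0.477 for JUP and -0.412 to 0.525 for PKP3. The causes were not tested. Of 92 alternative subfamily shares, 15 moved by over 1 SD. From raw counts, without division by exon length, the DSG3 share went from 37.6% to 58.2% with TGFβ in MI. In MII it went from 20.8% to 39.3%. The DSC3 share then went from 62.7% to 41.3% in MI and from 13.2% to 10.8% in MII. The directions were kept, but which gene led in MI Ctrl and MII TGFβ (desmogleins) and in MI TGFβ (desmocollins) depended on exon length. PKP1, at up to 25 counts, is tested or not depending on the filter.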
